A study of Arabidopsis thaliana with 6 samples.

Results

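Genes for heavy-metal-associated domain proteins were followed in Arabidopsis thaliana roots with and without cadmium. The members are 50 listed loci that encode metallochaperone-like proteins with this domain. A member was taken as measured where a probe set of the array names exactly 1 of these loci, and where a gene had several such probe sets the brightest on average stood for it. This gave 26 measured members of the 50, among 13333 genes with such a probe set. The array annotation and the RefSeq table give each of the 26 only a locus number, so no individual role is stated for them. The 24 members without a named probe set, which are not analysed here, are the copper chaperones ATX1 and CCH, the phloem genes NAKR1 and NAKR2, HIPP20, HIPP21, HIPP22, HIPP25, HIPP27, FP6 (also known as HIPP26), AT5G52730, AT5G27690, AT1G06330, AT4G08570, AT4G39700, AT2G18196, AT3G56891, AT1G29000, AT1G29100, AT4G10465, AT3G02960, AT3G21490, AT5G05365 and AT5G26690.

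The heavy-metal-associated domain is a small fold that holds a metal ion between a pair of cysteines. Copper chaperones use it to hand copper to membrane pumps, so that the free ion does not build up in the cell. Plants also have a large family of such proteins with a lipid anchor at the C-terminal end, the heavy-metal-associated isoprenylated plant proteins (HIPPs), some of which have been studied for tolerance of cadmium and of drought.

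Both groups were roots of 4-week-old wild-type plants of the Col-0 accession in hydroponic culture. The sample records give 28 °C and a cycle of 16 h light and 8 h dark for all 6 samples. The control group (3 arrays) received no cadmium and the cadmium group (3 arrays) received 200 µM cadmium for 6 h, and no mutant or transgenic line was used. The plants are called biological replicates in the labels, with numbers 1 to 3 in each group. Total RNA was read on Affymetrix ATH1 arrays, 1 for each sample. The sources used here do not say how many plants made up a sample. Signals are linear MAS5 units, multiplied by 1 factor for each array so that its trimmed mean was 500. Fewer cells of a type and less RNA per cell cannot be told apart in whole roots. With so few arrays, every value has limited precision.

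The arrays of replicate 2 stood apart from the others. Their deposited trimmed means were 216 and 227 instead of 500, and the 3' to 5' ratio of the GAPDH control transcript was 2.02 and 1.67 (log2) on them against -0.60 to -0.19 on the other 4 arrays. The ubiquitin control ratio separated them only narrowly, at 1.05 and 1.26 against 0.65 to 1.03. Across 15922 tested probe sets, which are not independent replicates, the cadmium minus control differences of replicates 1 and 3 correlated with r = 0.77, while those of replicate 2 correlated with r = -0.67 and -0.63 with them. For 61.1% of tested probe sets replicates 1 and 3 moved alike and replicate 2 the opposite way. The part of the differing processing of replicate 2 in this opposition was not tested, and arrays are named by the group on their label throughout. Whether control and cadmium labels were exchanged in replicate 2 or in the other replicates was not tested, and such an exchange would turn every direction given for the arrays concerned. Results are therefore given over all 6 arrays, within replicates 1 and 3, called the batch here (2 arrays a group), and for replicate 2 as 1 pair without replication. Of the fixed tissue markers, 2 of 10 for root and 2 of 10 for shoot had a named probe set and 0 of 5 for phloem. The peroxidase locus AT4G11290 of the root list gave 4230 to 7467 over the 6 arrays, with differences of -0.12, -0.38 and -0.65 in replicates 1, 2 and 3. EXPA7, a root hair expansin, gave 204 to 752, with 0.69, -0.44 and 0.86. The shoot markers were detected as well and were dimmer in replicate 2, where RCA (rubisco activase) read 604 and 678 against 1223 to 1669 elsewhere and PRK (phosphoribulokinase) 61.9 and 72.9 against 261 to 440. Their part in the results was not tested.

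The first comparison asks which members differ between roots with and without cadmium. Over all 6 arrays 0 of the 18 members above the filter on mean signal passed the threshold (adjusted p of 0.05 in limma), where 0% of all tested probe sets did. At an unadjusted p under 0.05 the counts were 0 members and 108 probe sets, or 0.678% of those tested. The members' differences over 6 arrays ranged from -4.07 to 1.26 (log2), with a median of -0.38 beside 0.06 over all tested probe sets. Within the batch 2 of 18 members passed the threshold, both lower on the arrays labelled cadmium, where 3.19% of tested probe sets were lower and 1.19% higher past it. These 2 members are AT5G52760 and AT5G52750, which lie next to each other on chromosome 5. The median difference of the 18 members within the batch was -0.50 beside 0.22 over all tested probe sets. With each array centred on its median signal, the batch medians were -0.75 and -0.03, and 106 probe sets were called higher and 671 lower in place of 189 and 508.

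AT5G52760 and AT5G52750 belong to a run of 5 listed loci, AT5G52720 to AT5G52760, which follow each other on chromosome 5 of the TAIR10.1 annotation. Of these, 4 had a named probe set and AT5G52730 had none. The run held the widest differences among the measured members. The only other neighbouring loci in the list are HIPP22 and AT1G23000, of which the latter was measured.

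For AT5G52760 the control array read 973 and the cadmium array 6.57 in replicate 1, and in replicate 3 they read 622 and 4.16. In replicate 2 the control array read 266 and the cadmium array 1239. The groups were far apart within the batch and overlapped over all 6 arrays, because the brightest array of all was labelled cadmium. Both dim arrays lay under 90.7, the 30th percentile of all signals, which is used here as a floor for weak signals. Within the batch the gene was at least 8.58-fold lower with the cadmium label (log2 difference -7.22 ± 0.51 SE without the floor, limma adjusted p = 0.0118). With signals under the floor set to it, the call was lost (adjusted p = 0.0671), as it was for every probe set of the batch. A lower floor of 53.9, the 20th percentile, kept the call with a difference of -3.85 (adjusted p = 0.0325).

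For AT5G52750 the control and cadmium arrays read 2866 and 126 in replicate 1, 1562 and 82.7 in replicate 3, and 797 and 2717 in replicate 2. The pattern was that of its neighbour, with the control arrays high in replicates 1 and 3 and the cadmium array high in replicate 2. Within the batch its difference was -4.37 ± 0.39 SE (log2, limma adjusted p = 0.0147), 20.7-fold lower with the cadmium label. Its cadmium array of replicate 3 lay a little under the floor, and with the floor the gene was 19.8-fold lower (difference -4.31). It then missed the threshold (adjusted p = 0.0671), as did every probe set of the batch. With the lower floor it passed (adjusted p = 0.0385). Over all 6 arrays the difference was -2.33 ± 1.26 SE (adjusted p = 1), and that of AT5G52760 was -4.07 ± 2.0 SE (adjusted p = 1), or -1.33 with the floor. Without cadmium replicate 2 these differences were -3.91 and -6.70, and without cadmium replicate 3 they were -1.39 and -2.59.

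For AT5G52720 the control and cadmium arrays read 101 and 6.70 in replicate 1 and 291 and 31.4 in replicate 3. In replicate 2 they read 34.1 and 661, a difference of 4.28 (log2). The order of the arrays was again turned in replicate 2, and 3 of the 6 signals lay under the floor. Within the batch the difference was -3.56 ± 0.96 SE and did not pass the threshold (adjusted p = 0.113), and with the floor it was -0.92. AT5G52740 gave 15.7 to 29.6 on the 6 arrays, all under the floor, so its level could not be ordered between the groups.

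**Figure D1:**
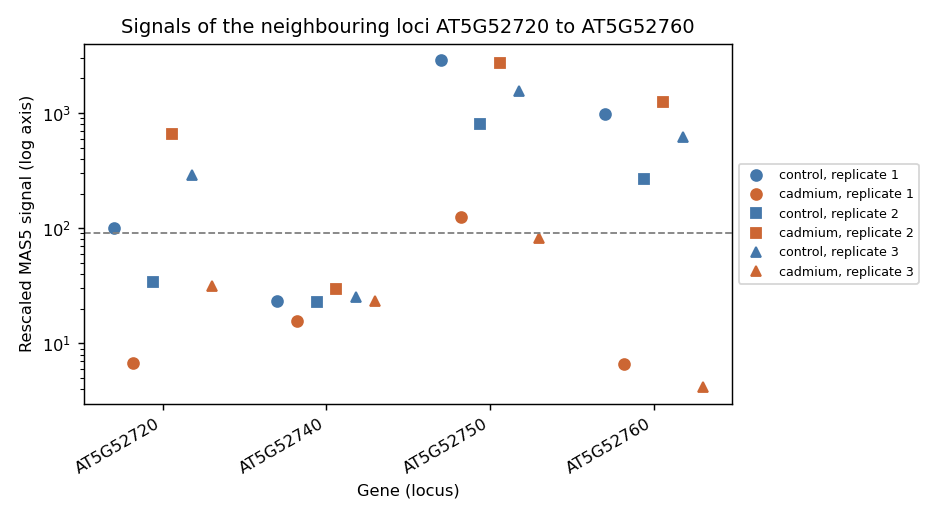
Rescaled MAS5 signal (log axis) of the 4 measured loci of the run on each of the 6 arrays, with blue for control, orange for cadmium, and the symbol for the replicate number; the dashed line is the floor of 90.7. AT5G52750 and AT5G52760 are high for control and low for cadmium in replicates 1 and 3, while in replicate 2 the cadmium array is the higher, and AT5G52740 lies under the floor on all arrays.

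The genes around the run were examined after its values were seen. Among the 10 protein-coding genes nearest to it, 5 on each side, 9 had a named probe set and 5 were tested. Of these 5, 1 passed the threshold within the batch, where 4.38% of all tested probe sets passed in either direction. It was AT5G52670, 5 genes before AT5G52720, with differences of -2.90, 1.48 and -3.39 in replicates 1, 2 and 3 (batch adjusted p = 0.0161). The other 4 had batch differences of -1.65 to 1.38 (adjusted p of 0.0911 to 0.552). Among these, AT5G52680 (-1.86, 0.23 and -1.44) and AT5G52810 (-0.39, 0.17 and -0.35) had the signs of the run. AT5G52790 (0.97, -0.25 and 1.78) had the reverse, and AT5G52710 (1.28, -0.56 and -0.16) had neither. Under the filter, AT5G52770, AT5G52780 and AT5G52800 had the signs of the run as well, and AT5G52690 did not, but signs of such weak signals say little. Replicates 1 and 3 alike with replicate 2 opposed, in either direction, held for 61.1% of all tested probe sets. The wide differences were therefore not shared by all 5 tested genes, and the untested genes could not be judged.

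The second comparison asks whether the difference in replicate 2 departed from that in replicates 1 and 3. It was tested as an interaction in limma, with 2 residual degrees of freedom and the spread taken from replicates 1 and 3. Of the 18 tested members 4 passed the threshold, which is 22.2% beside 9.55% of all tested probe sets. In 3 members the difference was higher in replicate 2, beside 4.99% of tested probe sets, and in 1 it was lower, beside 4.55%. It was higher for AT5G52760 (by 9.44 ± 0.72 SE on the log2 scale, adjusted p = 0.0124), AT5G52750 (by 6.14 ± 0.67 SE, adjusted p = 0.0177) and AT1G01490 (by 1.77 ± 0.33 SE, adjusted p = 0.0408). For AT3G48970 it was lower, at -3.00 ± 0.48 SE (adjusted p = 0.0331). For AT5G52720, which passed the filter largely through cadmium replicate 2 (661), the value was 7.84 ± 1.66 SE. It missed the threshold (adjusted p = 0.0502). With the floor these sizes were 5.32 for AT5G52760, 6.08 for AT5G52750 and 3.79 for AT5G52720. Then 0 members passed, at adjusted p of 0.0502 to 0.0586 for the 4 called without it, and 236 probe sets did.

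**Figure D2:**
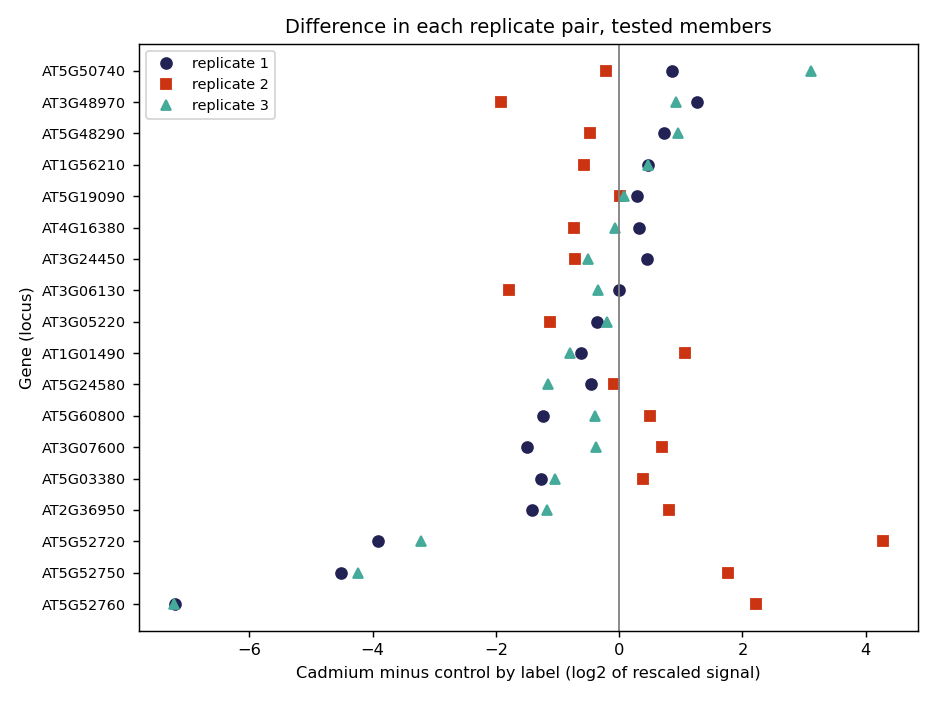
Cadmium minus control difference (log2 of rescaled signal, horizontal axis) in each replicate pair for the 18 tested members, sorted by the batch difference. Replicates 1 and 3 lie left of 0 and replicate 2 right of 0 for AT5G52760, AT5G52750 and AT5G52720, whereas most other members lie within about 2 units of 0.

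For AT3G48970 the control and cadmium arrays read 109 and 260 in replicate 1, 141 and 267 in replicate 3, and 336 and 89.3 in replicate 2. The cadmium arrays were thus the brighter in replicates 1 and 3 and the dimmer in replicate 2, the mirror image of the run on chromosome 5. Within the batch the difference was 1.09 ± 0.28 SE (adjusted p = 0.105).

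For AT1G01490 the control and cadmium arrays read 3087 and 2014 in replicate 1 and 3035 and 1741 in replicate 3. The replicate 2 arrays read 780 and 1629, both below the other 4. Within the batch the groups did not overlap, and the difference was -0.71 ± 0.18 SE (adjusted p = 0.105). In replicate 2 the difference was 1.06. Among the 18 tested members 2 had both replicate 2 arrays below all others, beside 18.4% of tested probe sets, and 3 had both above, beside 15.2%.

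**Figure D3:**
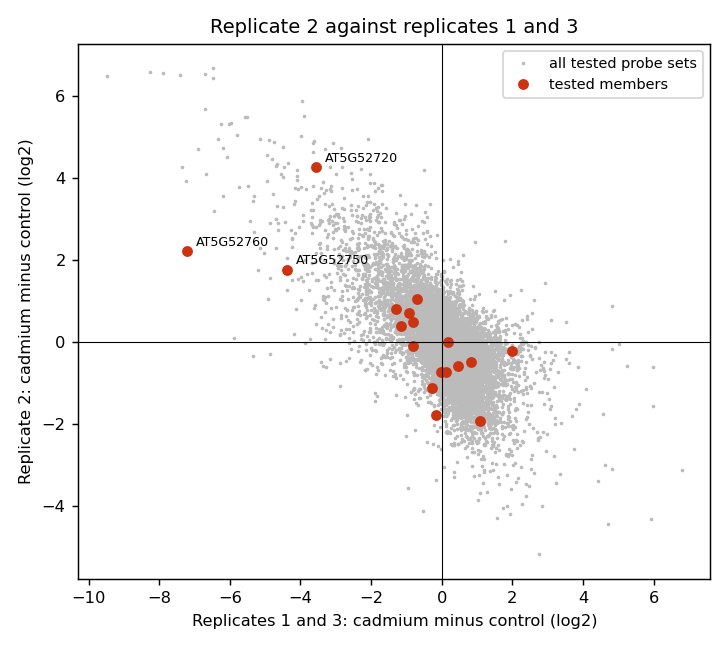
Cadmium minus control difference (log2) in replicate 2 (vertical axis) against that within replicates 1 and 3 (horizontal axis), with a grey point for each of the 15922 tested probe sets and a red point for each of the 18 tested members. The cloud slopes downwards, and AT5G52760, AT5G52750 and AT5G52720 lie at its upper left.

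The 3 members with the highest mean signal are well above the floor on every array. For AT5G03380 the control and cadmium arrays read 10547 and 4406 in replicate 1, 5653 and 2752 in replicate 3, and 4289 and 5623 in replicate 2. Its batch difference was -1.15 ± 0.38 SE (adjusted p = 0.159). AT2G36950 read 5369 and 2016 in replicate 1, 3279 and 1462 in replicate 3, and 2973 and 5202 in replicate 2, control first. Its batch difference was -1.29 ± 0.31 SE (adjusted p = 0.0912). For both genes the control arrays were the brighter in replicates 1 and 3 and the cadmium array the brighter in replicate 2, and neither passed the threshold.

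AT3G05220 was the only tested member whose groups did not overlap over all 6 arrays. Its control arrays gave 2406, 3441 and 2320 and its cadmium arrays 1872, 1587 and 2013, in the order of replicates 1, 2 and 3. Each cadmium array was below each control array, with differences of -0.36, -1.12 and -0.20. Over 6 arrays the difference was -0.56 ± 0.29 SE (limma adjusted p = 1), and an exact two-sided permutation test gave p = 0.1, the smallest that 3 against 3 arrays allow. Groups of 6 arrays with cadmium the lower did not overlap for 0.892% of tested probe sets. No tested member separated with cadmium the higher, beside 2.44% of tested probe sets. The gene was singled out here after its values were seen.

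**Figure D4:**
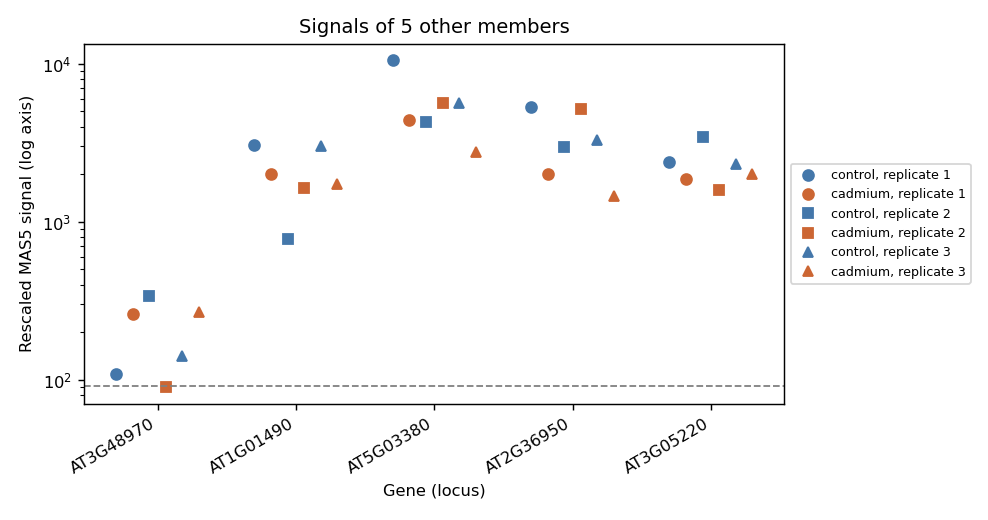
Rescaled MAS5 signal (log axis) of 5 members outside the run on each of the 6 arrays, with blue for control, orange for cadmium, and the symbol for the replicate number; the dashed line is the floor of 90.7. The cadmium arrays lie below the control arrays in 3 of 3 pairs for AT3G05220, and replicate 2 is turned against the others for AT3G48970, AT1G01490, AT5G03380 and AT2G36950.

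The other 10 tested members showed narrower or less even differences. Within the batch 5 were higher and 5 lower on the cadmium arrays, from -0.94 to 1.99, with adjusted p of 0.115 to 0.970. In replicate 2 their differences ran from -1.78 to 0.70. AT5G48290 read 297 and 488 in replicate 1, 249 and 484 in replicate 3, and 437 and 315 in replicate 2, control first. Its groups were separate within the batch and turned in replicate 2, but the batch difference of 0.84 ± 0.23 SE did not pass the threshold (adjusted p = 0.115). AT5G24580 went the same way in 3 of 3 pairs, with differences of -0.46, -0.08 and -1.15, and its batch difference was -0.80 (adjusted p = 0.168). AT5G19090 had small positive differences of 0.29, 0.02 and 0.08, and its batch difference turned negative after quantile normalization or median centring.

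AT3G06130 differed mainly in replicate 2, where its control array gave 1229 and its cadmium array 359. The control and cadmium arrays read 329 and 330 in replicate 1 and 656 and 515 in replicate 3, differences of 0.00 and -0.35. AT3G07600 read 331 and 117, 342 and 264, and 205 and 334 in replicates 1, 3 and 2, control first, with a batch difference of -0.94 (adjusted p = 0.259). AT5G50740 had the highest batch difference, 1.99 ± 0.82 SE (adjusted p = 0.219), but its signals there were 41.9 and 10.6 on control and 76.2 and 92.4 on cadmium. With the floor this difference was 0.01. A second probe set of the same gene gave 24.6 and 6.04 on control and 76.6 and 88.3 on cadmium, all under the floor. The remaining members, AT1G56210, AT3G24450, AT4G16380 and AT5G60800, had batch differences of 0.47, -0.03, 0.13 and -0.82, of which that of AT4G16380 turned negative after quantile normalization or median centring.

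Read over the 18 tested members, replicates 1 and 3 moved alike and replicate 2 the opposite way for 12 (66.7%), close to the 61.1% of all tested probe sets. In 3 members all pairs went the same way, or 16.7% beside 15.8%, and in 3 replicates 1 and 3 were not alike. Without the floor, a difference of at least 2-fold in each of the 3 pairs occurred in 3 members, AT5G52720, AT5G52750 and AT5G52760. This stands beside 6.14% of tested probe sets. With signals under the floor set to it, AT5G52720 dropped out (-0.16 in replicate 1) and 2 members remained, beside 5.34%. Within the batch the groups did not overlap for 9 members lower on the cadmium arrays, beside 17% of tested probe sets, and for 4 members higher, beside 40.6%. The share of opposed members was thus near the background, and most non-overlapping members were lower where most non-overlapping probe sets were higher. The latter was counted under 1 scaling only. Centring each array on its median moved the batch median of all tested probe sets from 0.22 to -0.03. Past the threshold, more tested probe sets were lower (3.19%) than higher (1.19%). A mean signal filter keeps a gene that is bright in 1 group alone or in replicate 2 alone, and on this the count of 18 depends. AT5G50740 gave 295 and 254 in replicate 2 and at most 92.4 on the other arrays, under the filter of 95.2. AT5G52720 gave 661 on cadmium replicate 2 and 6.70 to 291 elsewhere. Both genes are among the 12 opposed members and the non-overlapping ones, and their places in these counts are no independent support.

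The 8 members under the filter, which needs a mean signal of 95.2, were AT1G23000, AT1G63950, AT2G28090, AT3G20180, AT3G25855, AT4G05030, AT5G37860 and AT5G52740. On replicates 1 and 3 their signals were 2.05 to 69.2, all under the floor, in all 8. On replicate 2 they were 23.0 to 252. AT5G37860 read 252 and 220 in replicate 2 but 6.35 to 9.12 elsewhere. AT3G20180 read 102 and 120 there and 2.59 to 14.6 elsewhere. Both arrays of replicate 2 were above all other arrays in 6 of these 8 members, beside 59.7% of all probe sets under the filter, so the members were not far from the background in this. In 0 of the 8 did the groups of 6 arrays separate, beside 2.42% of the probe sets under the filter.

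**Figure D5:**
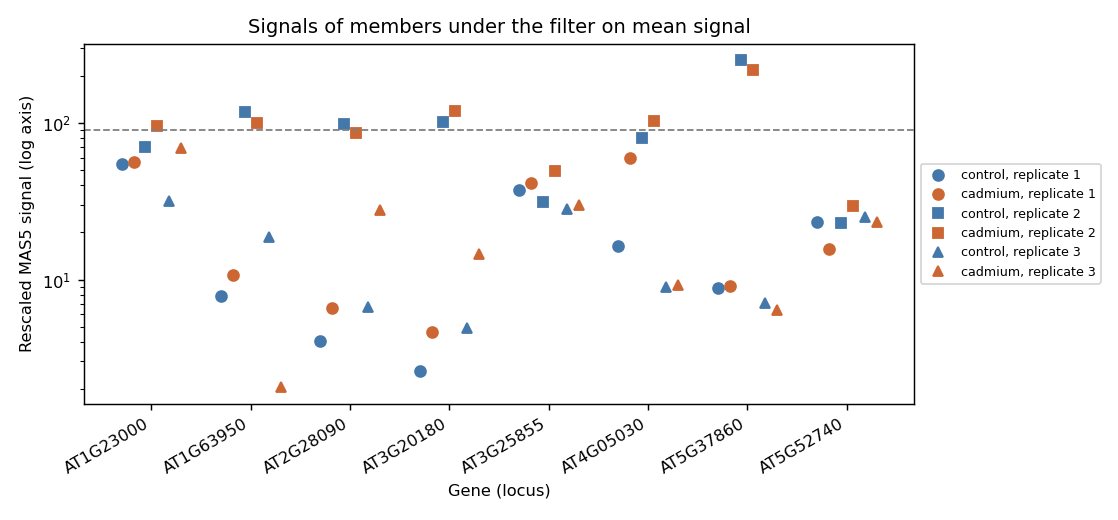
Rescaled MAS5 signal (log axis) of the 8 members under the filter on each of the 6 arrays, with blue for control, orange for cadmium, and the symbol for the replicate number; the dashed line is the floor of 90.7. All signals of replicates 1 and 3 lie under the floor, and squares, which mark replicate 2, lie above the other symbols in 6 of the 8 genes.

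Other genes of metal handling were read from a list of 48 loci that holds metal pumps, copper transporters, metallothioneins, phytochelatin synthases, copper superoxide dismutases and vacuolar transporters. Only 4 of the 48 had a named probe set, all 4 were tested, and 0 passed the threshold over 6 arrays, within the batch or in the interaction. CCS, the copper chaperone that loads superoxide dismutase, had differences of 0.20, 0.54 and 0.15 in replicates 1, 2 and 3 (batch adjusted p = 0.681). MT1C, a metallothionein that binds metals through cysteines, had 0.18, -0.21 and -0.09 (batch adjusted p = 0.910). ZIP9, a transporter of the zinc and iron family, had 0.04, 1.44 and -1.26 (batch adjusted p = 0.478). AT1G53030, a COX17-type copper chaperone of mitochondria, had -0.04, 0.38 and 0.48 (batch adjusted p = 0.655). None of these 4 had the turned pattern of AT5G52760 and AT5G52750, with replicates 1 and 3 alike and replicate 2 opposed. Of all tested probe sets 61.1% had it, and 4 genes are too few for a comparison of shares. The HIPP26 partners ACBP2 and ATHB29 were not analysed here.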

How the data were processed

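The authors deposited an intensity on a linear scale for 22810 probe sets on 6 arrays. Per the submitters' processing notes the tool was MAS5, and the sources used here name neither its version nor its scaling target. Groups and numbers came from the sample titles, and no value column was set aside. The descriptions number the replicates differently but pair the same arrays. P-values measure the spread between these samples.

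Each array was multiplied to a 2% trimmed mean of 500 (factors 2.31 and 2.20 for replicate 2, 1.00 for the others). A signal of 0, which occurred 7 times, was set to the array's lowest positive signal, and log2 was taken. Removing 64 control probe sets and those with a mean signal under the 30th percentile (95.2) left 15922. Each comparison was fitted in R 4.3.3 with limma 3.58.1, using lmFit and eBayes with an intensity trend, two-sided, with Benjamini-Hochberg adjustment over all tested probe sets, and 4 residual degrees of freedom over 6 arrays and 2 within replicates 1 and 3. Because the scaling of replicate 2 differed, the comparison was also run within that batch and the batches compared. A fold of a single gene given as "at least" sets signals under 90.7 to that value, while the 2-fold rule for pairs does so only where stated.

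Of 22746 probe sets that are not controls, 13513 name 1 gene, 503 several and 8730 none. Names were updated through RefSeq TAIR10.1, whose coordinates were not used except for the order of genes. By rule, values on each array are given for members past the threshold in any fit. The same holds for members at least 2-fold apart in each pair without the floor, and for the 3 with the highest mean signal. Other members are named for completeness. Array values of AT5G48290, AT3G06130, AT3G07600 and, in replicates 1 and 3, AT5G50740 are given outside this rule. The members, lists and tests were chosen with earlier results of these data known. Same-numbered arrays deviated from their group means with r = 0.14, 0.035 and 0.33 in replicates 1, 2 and 3. These group means include replicate 2, whose differences are opposed to the others, so the r values could not decide whether the numbers mark pairs. The reported fits did not take the numbers as pairs, because the labels do not say what a shared number stands for. Differences between same-numbered arrays, called pairs here, serve only to describe and to choose named members. The fits were tested on simulated data. Its noise was independent between arrays and replicate 2 was not turned, unlike in the real arrays, so recovery there may differ. With 50 genes changed at each size, at the spread of the real arrays, the fit over 6 arrays recovered 2%, 28%, 62% and 74% at log2 changes of 1, 2, 3 and 4. The fit within the batch recovered 12%, 80%, 82% and 80%, and the interaction 0%, 0%, 60% and 72%. Beside these, 9 unchanged probe sets were called over 6 arrays, 11 within the batch and 10 in the interaction.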

Additional observations from a re-analysis of the deposited data

Results flagged for a closer look

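For 4 members the difference in replicate 2 departed from that in replicates 1 and 3 past the threshold of the interaction test in limma. Replicate 2 minus replicates 1 and 3 was 9.44 for AT5G52760, 6.14 for AT5G52750, 1.77 for AT1G01490 and -3.00 for AT3G48970, on the log2 scale. The cadmium signals of AT5G52760 in replicates 1 and 3 were under the floor of 90.7, and with the floor its value was 5.32. With the floor 0 of the 4 passed the threshold. All 4 had replicates 1 and 3 alike and replicate 2 opposed, as did 61.1% of all tested probe sets. Replicate 2 has 1 array in each group, so its own spread was not measured. The arrays of replicate 2 also differed in scaling and in the GAPDH control ratio, and the part of these in the departures was not tested.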

How the results depend on the processing

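Over all 6 arrays 0 members passed the threshold under every alternative run except array weights, which gave replicate 2 weights of 0.33 and 0.19 against 1.25 to 3.52 for the others. With these weights 2 members (AT5G52760 and AT5G52750) and 435 probe sets passed. Within replicates 1 and 3 the count of members was 2 in the reported fit, 0 with the floor of 90.7, 8 with a replicate block, and 2 to 4 when an array was left out, with 4 without control replicate 3 (AT5G03380 and AT2G36950 added). The corresponding counts of probe sets were 697, 0 and 3388, with 96 to 1216 when an array was left out, the lowest without cadmium replicate 1, the highest without control replicate 3, and 128 when cadmium replicate 3 was dropped. Without the intensity trend 328 passed, and with the lower floor, chosen after the data were seen, 301. In the interaction test 4 members passed in the reported fit and 0 with the floor, and the probe sets were 1520 in the reported fit, 236 with the floor, 869 with the lower floor and 913 without the filter. AT1G01490 lost its call without the filter (adjusted p = 0.0503) and with the lower floor (0.0504). AT5G52720 gained one after quantile normalization (9.25, adjusted p = 0.0283). Median centring gave 941 higher and 297 lower interaction calls in place of 795 and 725.

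Over 6 arrays the difference of AT5G52720 turned to 0.34 with the floor and 0.09 with the lower floor, and ran from -2.79 to 0.52 when an array was left out. That of AT3G48970 turned to -0.29 after quantile normalization and -0.03 after median centring, and ran from -0.25 to 0.61 when an array was left out. That of AT1G01490 ran from -0.78 to 0.22. The cause was not tested in these cases. That of AT5G52760 ran from -6.70 to -2.59 and that of AT5G52750 from -3.91 to -1.39. AT5G52760 and AT5G52750 kept their batch calls under each alternative run but the floor, where every call of the batch was lost. Leaving out an array of the batch leaves 1 array in its group, which is then assumed to vary like the other group, so these fits are a weak check. The replicate numbers were not taken as pairs in the reported fits, so the block count of 8 is given for reference. Signals under the floor, on 3 of 6 arrays for AT5G52720, 2 of 6 for AT5G52760 and 1 of 6 for AT5G52750, limit the precision of their folds.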
